A study of Homo sapiens with 6 samples.

Results

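The leukocyte adhesion molecules examined here were ICAM1, ICAM2, ICAM3, ICAM4, ICAM5, VCAM1, ALCAM, CD58 and CD47, 9 genes taken by symbol from the 58174 genes listed for each sample. All 9 were listed, and 7 of them were expressed highly enough to be tested. They were measured in T24, an established line of human bladder cancer cells. The cells stably carried either a lentiviral shRNA against UBC9 (shRNA-UBC9 group) or a scrambled control shRNA (shRNA-NC group), both after puromycin selection, and polyA RNA was sequenced from 3 samples per group. A single hairpin against UBC9 was used, so an effect of that hairpin other than the loss of UBC9 cannot be told apart from the knock-down. No source used here says whether the 3 samples of a group came from separate cultures, so p-values measure the spread between these samples, which may be technical.

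UBC9 is the E2 enzyme that conjugates SUMO to its substrates. Cell surface adhesion molecules let leukocytes hold on to other cells. ICAM proteins bind the beta-2 integrins of leukocytes, above all LFA-1, and VCAM1 binds the integrin VLA-4. CD58 is the ligand of CD2 on T and NK cells, ALCAM binds CD6 on T cells, and CD47 binds SIRPA on phagocytes, where it acts as an inhibitory signal. ICAM1 and VCAM1 are textbook targets of NF-kappaB and are induced by TNF and interleukin-1, while ICAM1 also answers to interferon-gamma.

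After knock-down of UBC9, ICAM1 rose 5.88-fold, ICAM2 rose 2.39-fold, and ICAM5 and CD47 rose less, by 1.78-fold and 1.59-fold. ALCAM, which binds CD6, fell to 75.8% of its level in the shRNA-NC group. ICAM3 and CD58 did not pass the test. ICAM4 and VCAM1 were near 0 in both groups. These are levels in bulk RNA, in which fewer cells that express a gene and less RNA per cell cannot be told apart. Values are RPKM, a read number scaled for gene length and library size, and were compared with limma on log2(RPKM + 0.1). Genes entered the test where 3 or more of the 6 samples reached 0.5 RPKM. A gene passed the test with an adjusted p below 0.05 and was called a DEG where the log2 fold change was also above 1 or below -1.

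Of the 7 tested members, 4 passed the test with higher levels in shRNA-UBC9 (18.8% of all 12428 tested genes did so) and 1 with a lower level (18.0% of all tested genes). ICAM1 and ICAM2 were up-regulated DEGs, as were 5.20% of the tested genes, and no member was a down-regulated DEG, as were 2.70%. For 5 members every shRNA-UBC9 sample lay above every shRNA-NC sample (25.7% of tested genes), for 1 member every shRNA-UBC9 sample lay below (25.4%), and for ICAM3 the groups overlapped. The median log2 fold change of the 7 was 0.66, against 0.005 over all tested genes. All 7 had at least 0.5 RPKM in all 6 samples, so none entered the test through its higher group alone.

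**Figure D1:**
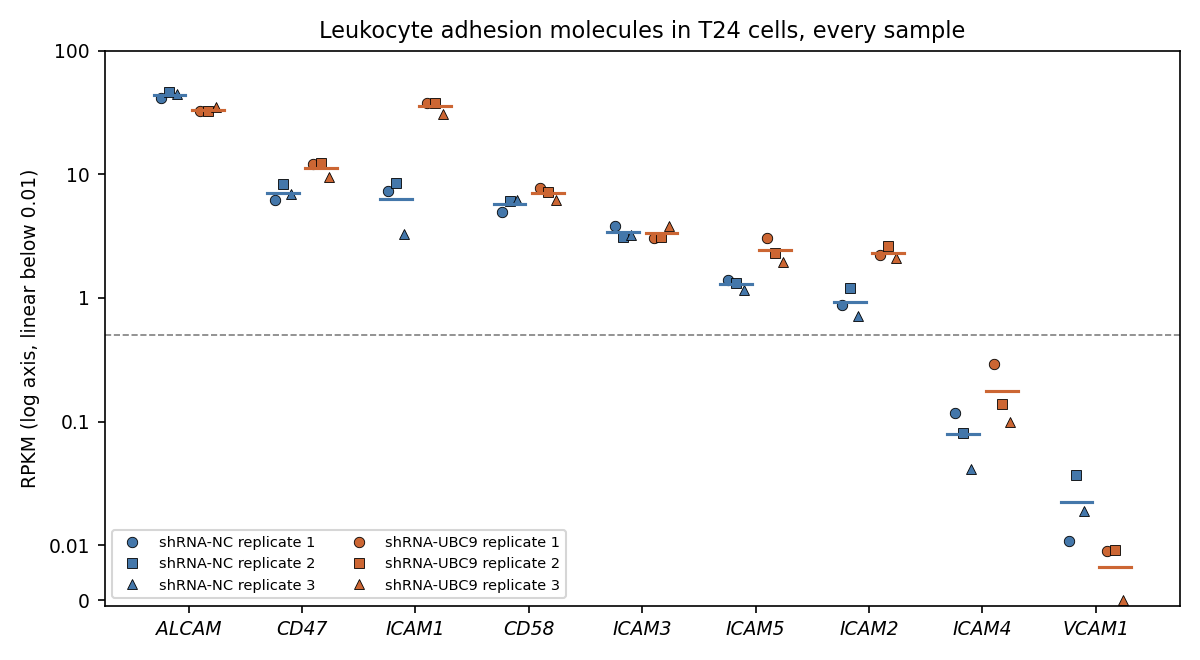
RPKM of the 9 adhesion molecules (y axis, logarithmic and linear below 0.01) in each of the 3 shRNA-NC and 3 shRNA-UBC9 samples, with a symbol per replicate, a bar at each group mean and a dashed line at 0.5 RPKM. ICAM1 moves from 3.31 to 8.47 RPKM in shRNA-NC up to the level of ALCAM in shRNA-UBC9, while ICAM4 and VCAM1 stay below 0.3 RPKM in every sample.

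The absolute depth is not known from RPKM. The depth relative to shRNA-NC replicate 1, read from the steps of low values, ranged from 0.945 to 1.208, with overlapping ranges in the groups. The keratins of simple epithelium were high (KRT7 at 556 ± 62.3 RPKM and KRT18 at 259 ± 11.8 RPKM in shRNA-NC, SD, n = 3), and the urothelial transcription factors PPARG and GATA3 were expressed, at 17.5 ± 3.04 and 7.66 ± 2.16 RPKM in shRNA-NC (SD, n = 3). KRT20 was at 0 in all 6 samples, and the uroplakins and CDH1 were at most 0.125 RPKM. The leukocyte gene PTPRC, which encodes CD45, was at 0 in shRNA-NC replicate 1 and shRNA-UBC9 replicate 3 and between 0.0630 and 0.102 RPKM in the other 4 samples, and CD3E, CD53 and CD2 showed the same split. In the 4 libraries with these traces alone, 4 members again passed the test with higher levels and 1 with a lower level. In the pair of libraries without them, the log2 difference was 2.05 for ICAM1, 1.18 for ICAM2, 0.45 for ICAM5, 0.62 for CD47 and -0.22 for ALCAM, with no test.

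The 220 bases that lie from 250 to 31 bases before the transcription start of ICAM1 and of VCAM1 are shown because both genes are classic NF-kappaB targets and because ICAM1 rose in these cells while VCAM1 was barely detected. Sequences are from RefSeq (GRCh38.p14), written from 5′ to 3′ on the plus strand, on which both genes lie, at chr19:10270870-10271089 for ICAM1 and chr1:100719492-100719711 for VCAM1. For ICAM1 the transcription start used for these positions lies downstream of the GENCODE gene start (chr19:10271093). For VCAM1 the starts are the same. Capitals mark matches, on either strand, to the NF-kappaB-like motif GGNNNTTCC or the STAT-like motif TTCNNNGAA.
ICAM1: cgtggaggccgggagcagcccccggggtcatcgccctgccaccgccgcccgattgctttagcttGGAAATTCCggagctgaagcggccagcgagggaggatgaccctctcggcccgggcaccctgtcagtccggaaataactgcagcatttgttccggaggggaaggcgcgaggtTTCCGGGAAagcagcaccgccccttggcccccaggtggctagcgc
VCAM1: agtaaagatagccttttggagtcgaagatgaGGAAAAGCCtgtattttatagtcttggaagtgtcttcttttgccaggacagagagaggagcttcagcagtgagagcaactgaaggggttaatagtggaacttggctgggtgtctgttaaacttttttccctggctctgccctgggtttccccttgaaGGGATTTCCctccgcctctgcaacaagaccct

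ICAM1 held 1 match to GGNNNTTCC, at bases -186 to -178 before the start, which reads as a match on both strands, and 1 match to TTCNNNGAA at -75 to -67. VCAM1 held 2 matches to GGNNNTTCC, at -219 to -211 and -62 to -54, and none to TTCNNNGAA. Over windows from 250 bases before to 50 after the start, GGNNNTTCC was in 20.1% and TTCNNNGAA in 7.66% of 35116 promoters. Of the other members in the promoter table, CD58 and 1 of the 3 ICAM3 windows held GGNNNTTCC. ALCAM, CD47, ICAM4 and ICAM5 did not, and ICAM2 had no entry. Every member with an entry held GGG and CC with any 5 bases between them, which 58.7% of all promoters held, and this overlaps the match at -62 in VCAM1. The AP-1-like motif TGANTCA (7.71% of promoters) was in no member, and an interferon-response-like motif, GAAA and GAAA with any 2 bases between them (3.57%), was in VCAM1 alone, at -15 to -6. A match is a description of the letters and not a binding site.

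ICAM1, which is CD54 and lies at chr19:10271093-10286615 on the plus strand (GRCh38, GENCODE release 44), was the member with the largest change. It was at 7.35, 8.47 and 3.31 RPKM in the shRNA-NC samples and at 37.7, 37.9 and 30.7 RPKM in the shRNA-UBC9 samples. The lowest shRNA-UBC9 sample was well above the highest shRNA-NC sample, and shRNA-NC replicate 3 was the lowest of all. The means were 6.38 ± 2.71 and 35.4 ± 4.09 RPKM (SD, n = 3 each), and the log2 fold change was 2.56 (SE 0.31, 95% interval 1.86 to 3.26, adjusted p = 0.000617). Leaving out any 1 sample kept it between 2.15 and 2.81. The ratio of ICAM1 to each of the other 6 tested members was higher in all shRNA-UBC9 samples than in any shRNA-NC sample. For each ratio, p = 0.1 by an exact permutation test, the smallest that 3 samples against 3 allow. ICAM1 was singled out here as the member with the largest change, so these ratios are no separate support for its rise. The annotated antisense RNA LIMASI overlaps most of ICAM1, and a strand setting of the authors' counting is not given in the sources used here, so reads of the 2 genes cannot be told apart.

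**Figure D2:**
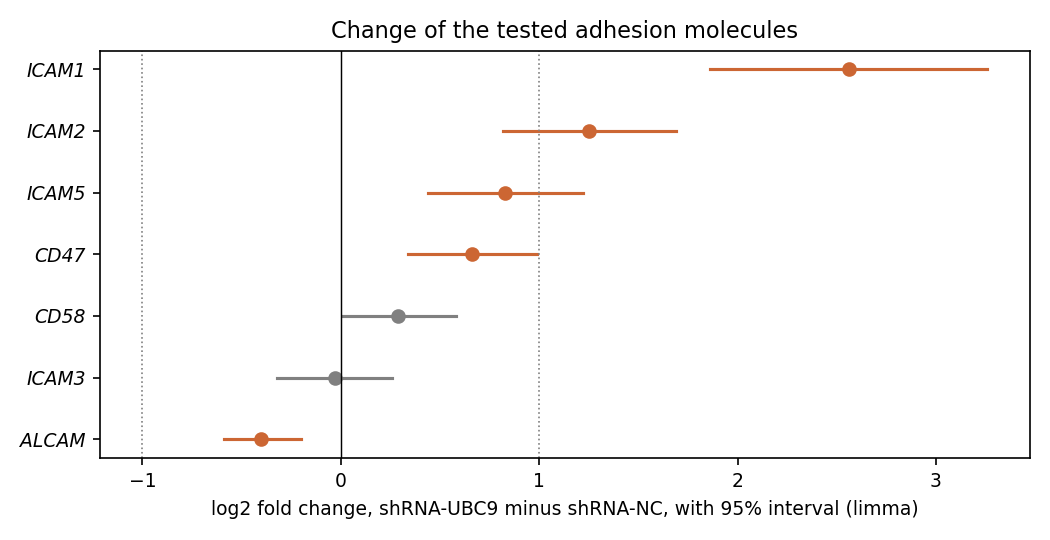
log2 fold change (x axis, shRNA-UBC9 minus shRNA-NC) with its 95% interval from limma for the 7 tested adhesion molecules. Orange marks members that passed the test and grey those that did not, and dotted lines stand at -1 and 1. ICAM1 lies at 2.56, apart from the other members.

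ICAM2, an ICAM best known from endothelium and platelets, lies at chr17:64002594-64020634 on the minus strand. It was at 0.878, 1.21 and 0.711 RPKM in shRNA-NC and at 2.24, 2.62 and 2.12 RPKM in shRNA-UBC9, and the groups did not overlap. The log2 fold change was 1.25 (SE 0.19, adjusted p = 0.00185). Because its level was low, the size depended on the pseudocount: with log2(RPKM + 1) it was 0.79 and no longer a DEG, with an adjusted p of 0.00145. PRR29, which overlaps ICAM2 on the other strand, was at most at a group mean of 0.148 RPKM.

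ICAM5, also called telencephalin for its place in the forebrain, lies at chr19:10289952-10296778 on the plus strand. It was at 1.41, 1.33 and 1.17 RPKM in shRNA-NC and at 3.03, 2.30 and 1.96 RPKM in shRNA-UBC9, with the lowest shRNA-UBC9 sample above all shRNA-NC samples. The log2 fold change was 0.83 (SE 0.17, adjusted p = 0.00659), below the cutoff for a DEG.

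ICAM3, the ICAM of resting leukocytes, lies at chr19:10333776-10339661 on the minus strand. It was at 3.84, 3.13 and 3.24 RPKM in shRNA-NC and at 3.06, 3.13 and 3.80 RPKM in shRNA-UBC9. The groups overlapped almost fully. The log2 fold change was -0.03 (adjusted p = 0.866), and its 95% interval of -0.32 to 0.26 corresponds to a fold between 0.802 and 1.19. An annotated antisense RNA, ENSG00000274425, overlaps 2473 bases of ICAM3, and with the strand setting not given, reads from that stretch cannot be assigned.

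ICAM4, the Landsteiner-Wiener blood group protein of red cells, lies at chr19:10286955-10288522 on the plus strand between ICAM1 and ICAM5. It was at 0.117, 0.0809 and 0.0414 RPKM in shRNA-NC and at 0.292, 0.139 and 0.0993 RPKM in shRNA-UBC9, so the groups overlapped (exact permutation test, p = 0.2). Scaled by relative depth, these values stood as the whole numbers 5, 4 and 2 to 15, 7 and 4, within 0.005 of a whole number. If the smallest step is 1 read, ICAM4 drew 11 reads in the shRNA-NC group and 26 in the shRNA-UBC9 group. The gene lies wholly within the annotated antisense RNA ICAM4-AS1, so these few reads are of uncertain origin. Tested without a filter on low values, its log2 fold change was 0.58 (SE 0.30, adjusted p = 0.248).

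ICAM1, ICAM4, ICAM5 and ICAM3 lie within 68.6 kb of each other on chromosome 19. MRPL4, a mitochondrial ribosomal protein gene on the near side of ICAM1, had a log2 fold change of -0.07 (adjusted p = 0.747). Between ICAM5 and ICAM3, FDX2 had 0.13 (adjusted p = 0.345) and RAVER1 fell, with -0.50 (adjusted p = 0.047). These neighbours were named by position, as the tested protein-coding genes on the near side of ICAM1 and between the members. The window closed shortly after ICAM3, so no gene on its far side was included. Within the cluster the values of the members ran from 2.56 for ICAM1 through 0.83 for ICAM5 to -0.03 for ICAM3.

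**Figure D3:**
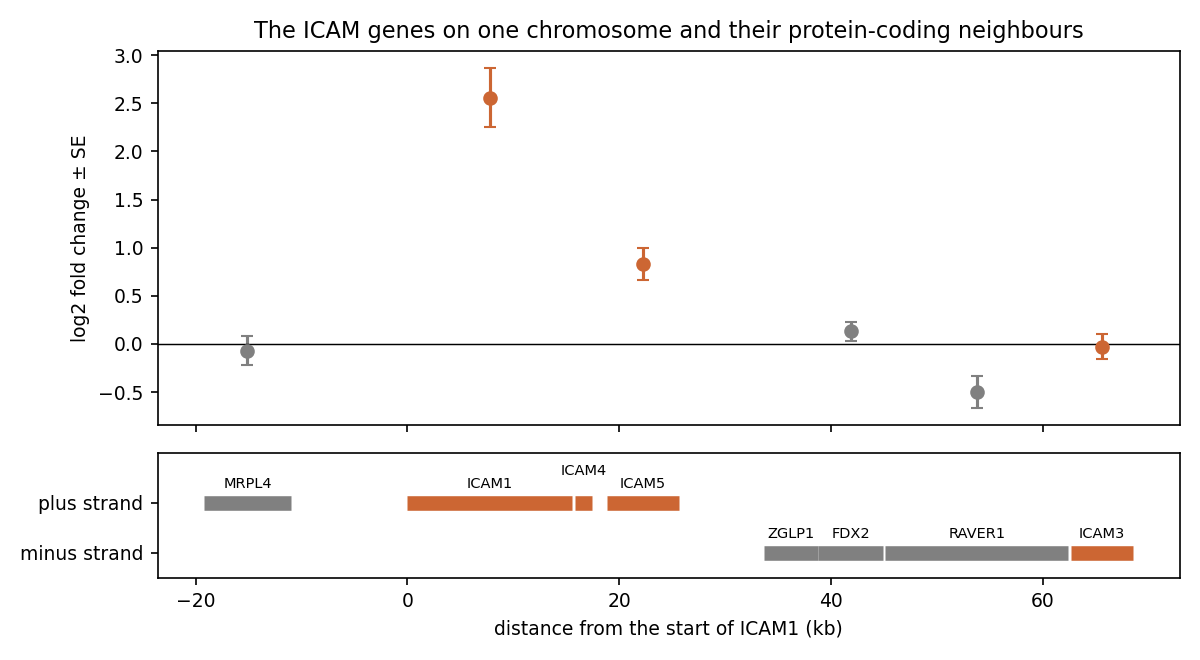
The lower panel maps ICAM1, ICAM4, ICAM5, ICAM3 (orange) and protein-coding neighbours (grey) by strand and distance from the start of ICAM1 in kb. The neighbours are those on the near side of ICAM1 and between the members, and genes beyond ICAM3 are not shown. The upper panel gives the log2 fold change ± SE (limma) of each gene that was tested, placed at the middle of the gene, and shows ICAM1 at 2.56 and ICAM5 at 0.83 with MRPL4, FDX2 and ICAM3 near 0.

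VCAM1, the endothelial ligand of VLA-4 at chr1:100719742-100739045 on the plus strand, was barely detected. It was at 0.0108, 0.0372 and 0.0191 RPKM in shRNA-NC and at 0.00894, 0.00915 and 0 RPKM in shRNA-UBC9. Scaled by relative depth, these values stood as the whole numbers 1, 4 and 2 to 1, 1 and 0, within 0.001. If the smallest step is 1 read, the group totals were 7 and 2 reads. The groups did not overlap in RPKM (exact permutation test, p = 0.1), but shRNA-NC replicate 1 and shRNA-UBC9 replicates 1 and 2 then each rest on 1 read at different depths. Tested without a filter on low values, the log2 fold change was -0.20 (SE 0.11, adjusted p = 0.27). No rise of VCAM1 was seen in the samples in which ICAM1 rose.

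ALCAM, which is CD166 and lies at chr3:105366909-105576900 on the plus strand, was the most abundant member in shRNA-NC. It was at 41.2, 46.4 and 44.7 RPKM in shRNA-NC and at 32.7, 32.3 and 35.3 RPKM in shRNA-UBC9. All shRNA-UBC9 samples were below all shRNA-NC samples. The log2 fold change was -0.40 (SE 0.08, 95% interval -0.59 to -0.20, adjusted p = 0.00799).

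CD47, the ligand of SIRPA, lies at chr3:108043091-108091862 on the minus strand. It was at 6.18, 8.31 and 6.92 RPKM in shRNA-NC and at 12.1, 12.4 and 9.57 RPKM in shRNA-UBC9, without overlap. The log2 fold change was 0.66 (SE 0.14, 95% interval 0.34 to 0.99, adjusted p = 0.00773).

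CD58 (LFA-3), the ligand of CD2, lies at chr1:116514534-116571039 on the minus strand. It was at 4.92, 6.14 and 6.20 RPKM in shRNA-NC and at 7.81, 7.16 and 6.24 RPKM in shRNA-UBC9. The groups did not overlap, but the highest shRNA-NC and the lowest shRNA-UBC9 sample were almost level. The log2 fold change of 0.29 (SE 0.13, 95% interval 0.01 to 0.58) did not pass the test (adjusted p = 0.0997). With a term for the libraries that held leukocyte traces, chosen after seeing the data, it did (0.29, adjusted p = 0.0231).

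RPKM is a level per gene length, so the members can be set side by side in a rough way. The annotation release and strand setting behind these levels are not given, and the level of ICAM1 may include reads of LIMASI. In shRNA-NC the order of mean levels was ALCAM at 44.1, CD47 at 7.13, ICAM1 at 6.38, CD58 at 5.75, ICAM3 at 3.40, ICAM5 at 1.30 and ICAM2 at 0.933 RPKM, then ICAM4 and VCAM1. Neighbours whose sample ranges overlapped were CD47 and ICAM1, ICAM1 and CD58, and ICAM5 and ICAM2. In shRNA-UBC9 the order was ICAM1 at 35.4, ALCAM at 33.4, CD47 at 11.4, CD58 at 7.07, ICAM3 at 3.33, ICAM5 at 2.43 and ICAM2 at 2.33 RPKM, again ahead of ICAM4 and VCAM1. Here the ranges of ICAM1 and ALCAM overlapped, as did those of ICAM5 and ICAM2. ICAM1 thus went from a level shared with CD47 and CD58 to one shared with ALCAM.

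The sum over the 9 members was 65.9, 75.1 and 66.3 RPKM in shRNA-NC and 99.0, 97.9 and 89.8 RPKM in shRNA-UBC9 (exact permutation test, p = 0.1). ICAM1 made up 9.14% ± 3.59 of this sum in shRNA-NC and 37.0% ± 2.42 in shRNA-UBC9 (SD, n = 3 each). ALCAM made up 63.9% ± 3.05 and 35.1% ± 3.61. The ratio of ICAM1 to ALCAM was 0.179, 0.182 and 0.0741 in the shRNA-NC samples and 1.15, 1.17 and 0.871 in the shRNA-UBC9 samples. The share of CD58 was 8.33% ± 0.951 and 7.39% ± 0.470, with overlapping groups (exact permutation test, p = 0.2).

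**Figure D4:**
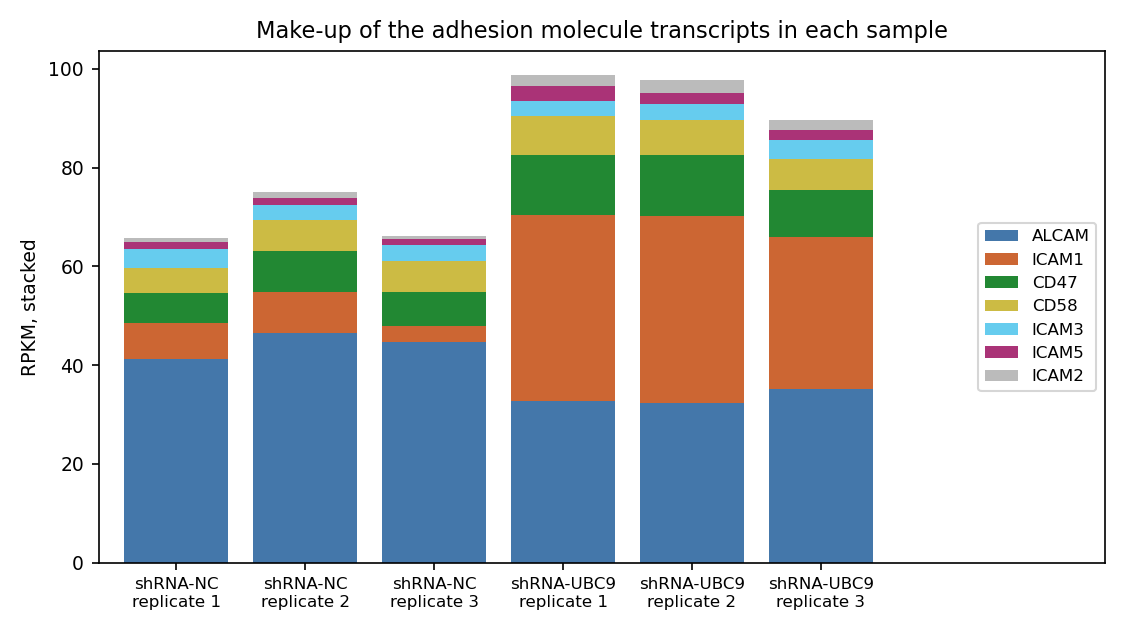
Stacked RPKM (y axis) of the 7 tested adhesion molecules in each of the 3 shRNA-NC and 3 shRNA-UBC9 samples, 1 bar per sample. The ALCAM segment is the largest in shRNA-NC, and in shRNA-UBC9 the ICAM1 segment, 37.0% of the sum over the 9 members on average, is of about its size.

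Transcripts of most of the receptors on leukocytes were scarce in the T24 samples, but those of the widely expressed ITGB1 and SIRPA were not. Of 9 integrin subunits that bind ICAMs or VCAM1, ITGB1 alone was expressed highly enough to be tested, with 212.5 ± 21.9 and 244 ± 15.4 RPKM (SD, n = 3) and a log2 fold change of 0.20 (adjusted p = 0.146). The other 8, among them ITGAL and ITGB2 of LFA-1 and ITGA4 of VLA-4, were at most 0.353 RPKM. Of 6 other binding partners 2 were tested. THBS1, which encodes thrombospondin-1, a secreted ligand of CD47, was at 53.8, 64.0 and 55.9 RPKM in shRNA-NC and fell to 7.04, 4.62 and 6.98 RPKM in shRNA-UBC9. This was a log2 fold change of -3.22 (SE 0.16, adjusted p = 1.41e-05), next to the rise of CD47. SIRPA, the other tested partner of CD47, was at 14.6 ± 3.03 and 11.8 ± 2.22 RPKM (SD, n = 3) and did not pass the test (-0.30, adjusted p = 0.214).

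Among 18 other adhesion molecules, mostly of the immunoglobulin superfamily, 9 were tested, 3 rose, 4 fell and 2 did not pass, with a median log2 fold change of -0.33. By comparison, 18.8% of all tested genes rose and 18.0% fell, with a median of 0.005. L1CAM and MCAM were down-regulated DEGs, as were 2.70% of all tested genes. L1CAM, the neural adhesion protein L1, went from 26.1, 48.2 and 27.6 RPKM to 17.6, 10.6 and 10.7 RPKM, with a log2 fold change of -1.36 (SE 0.27, adjusted p = 0.00562). MCAM, which is CD146, went from 21.2, 24.3 and 19.9 RPKM to 10.7, 9.16 and 11.4 RPKM (-1.06, SE 0.11, adjusted p = 0.000421). Its DEG call lay close to the cutoff. It was lost without shRNA-NC replicate 2 (-0.98), without shRNA-UBC9 replicate 2 (-0.97) and with log2(RPKM + 1). The 3 that rose were PVR (0.87), F11R (0.85) and NECTIN2 (0.41), none of them a DEG. Of 8 selectins and selectin ligands 3 were tested and 2 rose. PODXL was the DEG of that list, at 1.05 (adjusted p = 0.0058), and together with CD44 (0.51) it was named after its value had been seen.

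Under the membrane, 10 of 10 cytoskeletal linkers were tested: 2 rose, 4 fell, 4 did not pass, none was a DEG and the median log2 fold change was -0.22. Over all tested genes 18.8% rose and 18.0% fell, with a median of 0.005. EZR and RDX, which encode ezrin and radixin and tie ICAM tails to actin, fell (-0.43 and -0.53, adjusted p = 0.00366 and 0.00152). MSN, their relative moesin, did not pass (0.43, adjusted p = 0.0671). Of 9 proteases and enzymes that shed adhesion molecules or mature CD47, 7 were tested, with 2 up and 2 down and a median of 0.02. The membrane protease MMP14 rose from 48.5 ± 9.54 to 134 ± 23.6 RPKM (SD, n = 3; log2 fold change 1.47, adjusted p = 0.000597). QPCT, a glutaminyl cyclase, rose from a mean of 1.44 to 4.19 RPKM (log2 fold change 1.47, adjusted p = 0.00013), while QPCTL, the Golgi enzyme that modifies CD47 for SIRPA binding, did not pass (-0.20, adjusted p = 0.242). ADAM17, a sheddase of ICAM1, VCAM1 and ALCAM, fell by 0.42 on the log2 scale (adjusted p = 0.0423), and ADAM10 did not pass (0.02, adjusted p = 0.877).

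Of 12 cytokines and transcription factors known to induce ICAM1 and VCAM1, 11 were tested, 9 rose, none fell and 7 were up-regulated DEGs, with a median log2 fold change of 1.99. Over all tested genes 18.8% rose, 18.0% fell and 5.20% were up-regulated DEGs, with a median of 0.005. The list of inducers was chosen with the rise of several of its genes in these samples already known. Among the DEGs were IL6 (5.38), IL1B (4.09), IL1A (3.52), TNF (2.89), RELB (1.99) and NFKB2 (1.76), and NFKB1 (0.60) and RELA (0.44) rose less. IFNG was at 0 in all 6 samples. IRF1 was not among those that rose (-0.46, adjusted p = 0.0834).

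**Figure D5:**
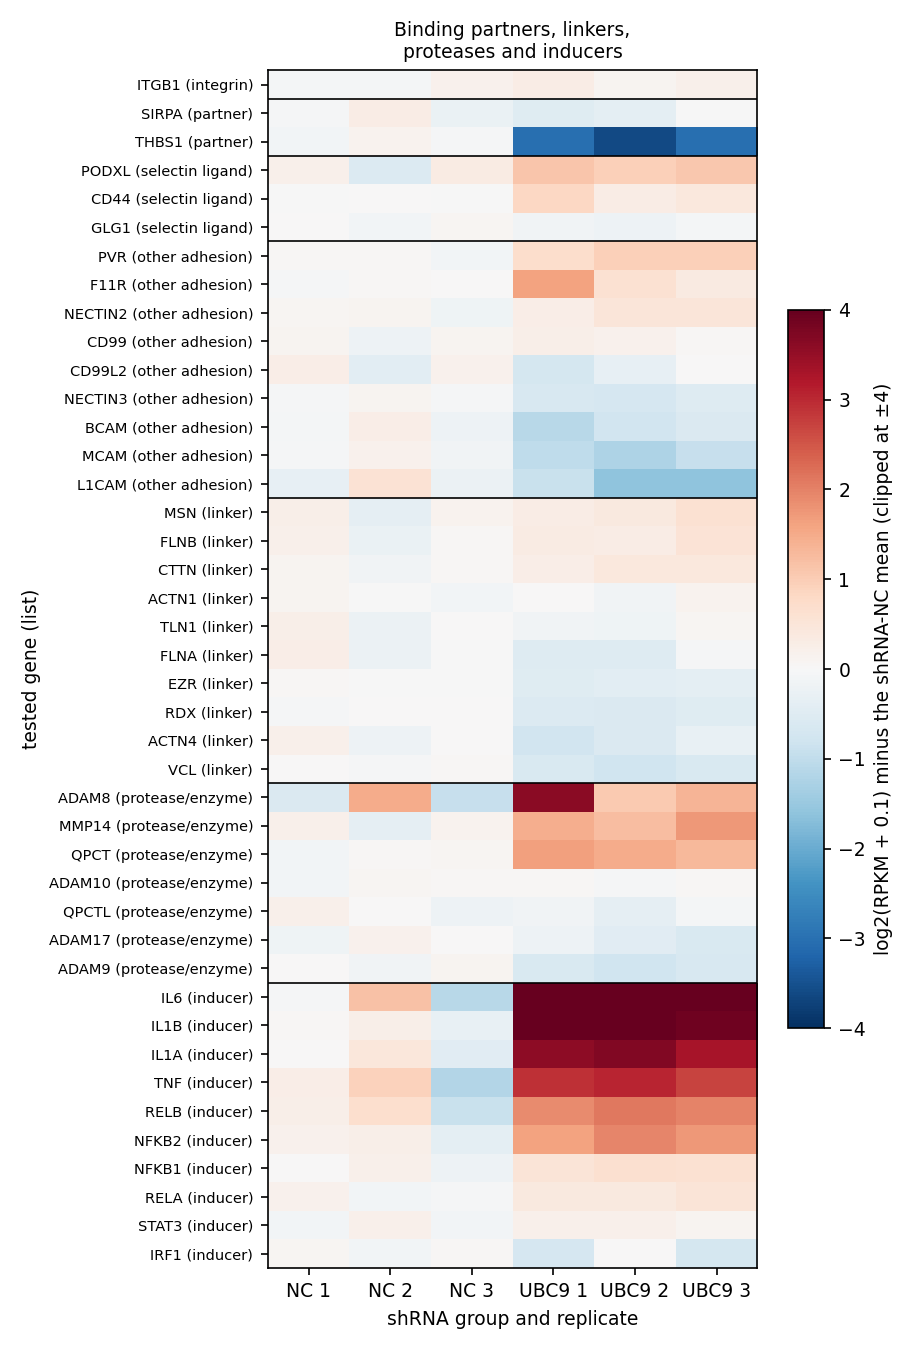
Heat map of log2(RPKM + 0.1) minus the shRNA-NC mean (colour, clipped at 4 and -4) for tested binding partners, other adhesion molecules, linkers, proteases and inducers (rows) in the 6 samples (columns). The inducers IL6 (5.38), IL1B (4.09) and IL1A (3.52) have the highest log2 fold changes shown, other inducers such as IRF1 (-0.46) do not rise, and THBS1 falls most, at -3.22.

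The tested genes closest to ICAM1 over the 6 samples, by the root mean square difference of log2 levels after the shRNA-NC mean was taken off, were SOD2 (0.206), ZC3H12A (0.242), TNFRSF9 (0.298), TNF (0.327) and HBEGF (0.328). TNFRSF9 reached 0.5 RPKM in the shRNA-UBC9 samples alone (mean 0.0846 RPKM in shRNA-NC) and so had to be higher there. SOD2, the mitochondrial superoxide dismutase, rose from 8.01 ± 2.75 to 47.7 ± 7.57 RPKM (SD, n = 3; log2 fold change 2.60, adjusted p = 0.000171). ZC3H12A, which encodes the RNase regnase-1, rose from 5.37 ± 2.47 to 35.1 ± 3.16 RPKM (SD, n = 3; 2.81, adjusted p = 0.000522). The genes closest to ICAM2 were PDCD1LG2 (0.093), SP5 (0.110), NCR3LG1 (0.117), PLD6 (0.122) and HLA-C (0.127). SP5 reached 0.5 RPKM in every shRNA-UBC9 sample but in shRNA-NC only in replicate 2 (0.547 RPKM), so it entered the test through its higher group. PDCD1LG2 encodes the checkpoint ligand PD-L2, NCR3LG1 the NK cell ligand B7-H6 and HLA-C an MHC class I heavy chain, and their log2 fold changes were 1.35, 1.35 and 1.36. How reads shared between HLA-C and other class I genes were assigned is not given in the sources used here. Likeness here describes levels in 6 samples that fall into 2 groups.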

How the data were processed

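The authors trimmed adaptors, mapped the reads of the polyA libraries to GRCh38 in the CLC Biomedical Genomics Workbench 4 at default settings and deposited RPKM values, with 1 library per file. The annotation release, strand setting and treatment of multi-mapped reads are not given in the sources used here. RPKM is not corrected for RNA composition, and no read counts were used.

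Genes with at least 0.5 RPKM in at least 3 of 6 samples were compared on log2(RPKM + 0.1) with limma 3.58.1 (lmFit and eBayes with an intensity trend, R 4.3.3), with Benjamini-Hochberg adjustment over all 12428 genes. Fold changes on this scale understate those of low genes. Every adjusted p is from limma. Exact permutation tests were two-sided and unadjusted. Scripts were tested on simulated data. Python 3.11.15 was used for the rest.

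The members and gene lists were chosen with earlier results of these data known. Named were the members, up to 12 listed DEGs by size of change, the 5 genes closest to each member called a DEG, and exceptions stated as such, and some results that this rule would name are not reported here. Alternatives were other pseudocounts, filters and scalings, no trend, a replicate block and leaving out each sample. Promoter sequences and gene positions came from RefSeq and GENCODE release 44, both on GRCh38, and the symbols were matched by name: 9 of 9 members in GENCODE and 8 of 9 in the promoter table.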

Additional observations from a re-analysis of the deposited data

How the results depend on the processing

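ICAM1, ICAM2, ICAM5, CD47 and ALCAM kept their direction and passed the test under every other pseudocount, filter, scaling, variance setting, block and left-out sample that allowed a test (ICAM2 could not be tested where at least 1 RPKM was required in every sample). ICAM3 and CD58 passed under none of these. The DEG call of ICAM2 was the weak point: 1 member, ICAM1, was an up-regulated DEG with log2(RPKM + 1), and again 1 with the filter of 1 RPKM in every sample. Over all genes those settings gave 391 up-regulated and 161 down-regulated DEGs, and 342 and 210, against 646 and 335. With each sample left out in turn, the log2 fold change of ICAM3 ran from -0.13 to 0.06, and turned above 0 without shRNA-NC replicate 1 (0.06), shRNA-UBC9 replicate 1 (0.02) or shRNA-UBC9 replicate 2 (0.01). With the replicate number as a block there were 642 up-regulated and 332 down-regulated DEGs, and no call of a member changed. The correlation of deviations from the group means between same-numbered samples was -0.367, 0.073 and -0.17, and no pairing by number was seen. Deviations within a group are tied to each other through its mean, so these values cannot settle whether same-numbered samples were paired. The highest such correlation, 0.526, was between shRNA-NC replicate 1 and shRNA-UBC9 replicate 3, the libraries without leukocyte traces. Alternatives for that split were added after seeing the data: CD58 passed with the split as a term (0.29, adjusted p = 0.0231), and between those 2 libraries ICAM5 differed by 0.45 and ALCAM by -0.22. The cause of these shifts was not tested. Depth limits ICAM4 and VCAM1, which rest on few reads.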

Other observations

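Some markers of other cell types were expressed in T24 cells and differed between the groups. CDH5, the endothelial VE-cadherin, was at 2.87 ± 0.287 RPKM in shRNA-NC and 0.619 ± 0.390 RPKM in shRNA-UBC9 (SD, n = 3; log2 fold change -2.20, adjusted p = 0.00288). EGFL7, the other endothelial marker that was tested, was more abundant, at 17.3 ± 1.65 and 17.9 ± 2.70 RPKM (SD, n = 3), and did not pass the test (0.04, adjusted p = 0.829). The leukocyte-associated genes CD68, a lysosomal glycoprotein, and LCP1, an actin-bundling protein, rose from 2.65 ± 0.970 to 32.2 ± 15.1 RPKM and from 1.92 ± 0.381 to 10.4 ± 3.09 RPKM (SD, n = 3 each), with log2 fold changes of 3.52 and 2.35 (adjusted p = 0.000376 and 0.000249). Of the 8 leukocyte markers 4 were tested, and the other 2 of these did not pass: CD14 (0.47, adjusted p = 0.25) and CORO1A (0.32, adjusted p = 0.065). The sum of all 8 was 8.04 to 10.7 RPKM in shRNA-NC and 32.2 to 67.9 RPKM in shRNA-UBC9. This rise lay mostly in CD68 and LCP1. The part of other cells in any result was not tested, and PTPRC was at most 0.102 RPKM.

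Of 7 endothelial markers 2 were tested, with sums of 18.6 to 22.1 and 15.2 to 20.7 RPKM. Of 6 fibroblast markers 2 were tested, with sums of 0.983 to 1.33 and 0.882 to 1.31 RPKM, and they went opposite ways. COL1A1 was at a mean of 0.377 RPKM in shRNA-NC and 0.818 RPKM in shRNA-UBC9 (log2 fold change 0.95, adjusted p = 0.0276), and PDGFRB at 0.764 and 0.202 RPKM. PDGFRB reached 0.5 RPKM in the shRNA-NC samples alone and so had to differ. COL1A1 reached it in every shRNA-UBC9 sample but in shRNA-NC only in replicate 2 (0.535 RPKM), so it entered the test through its higher group. Of 14 epithelial markers 7 were tested and 6 fell, among them KRT7 (-1.11, adjusted p = 0.000578) and PPARG (-2.15, adjusted p = 0.00169). The share that fell over all tested genes was 18.0%. All values named in this section were chosen after they had been seen.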
